A study of Rattus norvegicus with 22 samples.

Results

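The transforming growth factor beta (TGF-beta) genes of squamous cell carcinomas of the rat tongue were compared with adjacent, phenotypically normal tongue. The set comprised 10 genes chosen by symbol: the ligands Tgfb1, Tgfb2 and Tgfb3, the activin subunit gene Inhba, the latent TGF-beta binding protein genes Ltbp1 and Ltbp2, the receptor genes Tgfbr1 and Tgfbr2, the inhibitor gene Smad7 and the target gene Tgfbi. On the array, 9 of the 10 genes carried a probe under their symbol, out of 19167 symbols measured in all, and Tgfbr2 was not analysed here. Each gene was read from its brightest probe over 22 one-colour arrays. Male F344 rats, an inbred strain, drank 20 ppm 4-nitroquinoline-1-oxide (4-NQO), a carcinogen, for 10 weeks. Rats were killed at approximately 33 weeks of age, or earlier where they showed signs of a large oral cancer. An oral squamous cell carcinoma (OSCC) and a piece of normal tongue were taken from each of 11 rats. The normal pieces therefore came from 4-NQO-treated tongues, although the labels give their treatment as none. The sample titles call all 22 samples untreated. Both tissues were bulk pieces, so fewer cells of a type and less RNA per cell cannot be told apart.

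TGF-beta ligands are secreted as latent dimers, held by their own propeptide and tethered to the matrix through latent TGF-beta binding proteins. Integrins, proteases and thrombospondin release the ligand, which then brings type 2 and type 1 receptors together at the cell surface. The type 1 receptor phosphorylates SMAD2 and SMAD3, which enter the nucleus with SMAD4 and switch on matrix genes, growth inhibitors and the pathway's own inhibitors. Activins are family ligands with their own receptors that use the same SMADs. In squamous epithelia the pathway is known for restraining growth, and in fibroblasts for driving matrix production.

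The probes that read the pathway are 60 bases long, and 4 of them are shown, because they are what the array measured for the first TGF-beta ligand, for the activin subunit and for both latency proteins. They were taken as coding, up to a stop codon where there is one, from their open reading frames alone. The other probes were not sorted in this way. The sequences are 5′ to 3′ as the scanner files list them, and capitals mark a stop codon in the frame taken. The Inhba probe runs past that codon and is given for its first 52 bases.
Tgfb1: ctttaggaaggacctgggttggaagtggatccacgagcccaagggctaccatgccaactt
Inhba: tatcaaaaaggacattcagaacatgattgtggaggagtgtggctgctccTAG
Ltbp1: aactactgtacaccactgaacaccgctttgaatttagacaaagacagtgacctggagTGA
Ltbp2: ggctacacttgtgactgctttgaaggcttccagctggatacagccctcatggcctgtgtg
On the rn4 build that the array annotation uses, the Tgfb1 probe lay at chr1:80910123-80910182 on the plus strand. The Inhba probe lay at chr17:57244565-57244624, the Ltbp1 probe at chr6:19943398-19943457 and this Ltbp2 probe at chr6:108827967-108828026, all on the minus strand. The brighter Ltbp2 probe, used for the values that follow, was annotated at chr6:108826444-108826471, which is shorter than the probe itself. The annotation placed the Tgfbr1 probe at chr5:64033998-64034057, the Tgfbi probe at chr17:13905255-13905314, the Tgfb3 probe at chr6:110173856-110173915, the Smad7 probe at chr18:72323004-72323063 and the Tgfb2 probe at chr13:102718952-102719010.

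Expression is given on the log2 scale relative to the 75th percentile of the same array, so 0 means a signal equal to that percentile and 1 unit is a doubling. That percentile was 236.8 to 654.9 intensity units on the normal arrays and 338.7 to 1414 on the OSCC arrays. Between 48.4% and 56.1% of probes were well above background on the normal arrays, and between 52.3% and 65.5% on the OSCC arrays. The 2 tissues shared no slide, and all 11 normal arrays were scanned on 1 day together with the OSCC arrays of animals 4 and 9, while the other 9 OSCC arrays were scanned on a second day. Over all genes, the OSCC-minus-normal differences of animals 22 and 24 correlated with the mean of the other pairs at 0.21 and 0.26, and those of animals 17 and 21 at 0.47 each, against 0.76 to 0.84 for the other 7 pairs. The median difference of all 30367 probes was -0.24, so a gene at 0 lay above most probes. A gene was called when its difference was at least 2-fold with an adjusted p under 0.05, from limma with the rat as a block and Benjamini-Hochberg adjustment over all probes. This rule called 14.7% of the 19167 symbols, 7.48% as higher in OSCC and 7.24% as lower.

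Of the 9 measured TGF-beta genes, 2 were called, Ltbp2 and Inhba, and both were higher in OSCC. The median difference of the 9 genes was 0.39, against -0.21 over the 19167 symbols. Tgfbr1 passed the adjusted p but not the 2-fold threshold. The signal was well above background on all 22 arrays for 6 of the 9 genes, and on at least 11 arrays for 8, the exception being Tgfb2.

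Among the ligands, Inhba, which encodes the subunit of activin A, was the only one called. Its level was -3.04 at the lowest, -2.58 at the median and -1.46 at the highest in normal tongue. In OSCC it was -3.16, 0.28 and 2.51. OSCC lay above every normal sample in 7 animals (4, 9, 11, 13, 16, 25 and 26) and below every normal sample in 1 (animal 17), and the other 3 lay within the normal range. The mean difference was 2.37 ± 0.59 (SE, n = 11 pairs), a 5.17-fold rise with a 95% interval of 2.15-fold to 12.5-fold (limma adjusted p = 0.0081). It was higher in OSCC in 9 of 11 pairs, from -0.64 in animal 24 to 4.90 in animal 11, and passed 2-fold in 7 pairs. With a convolution background correction the mean difference was 1.65 and was still called. With scan day as a further term the difference was 3.02 and was no longer called (limma adjusted p = 0.15), against 0.0014 to 0.15 over 24 alternatives. In the pairs whose arrays were scanned on the same day, it was 4.50 in animal 4 and 1.54 in animal 9.

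Tgfb1 encodes the most widely expressed of the 3 TGF-beta ligands. Its normal levels were tight, with a lowest of -0.89, a median of -0.60 and a highest of -0.22. OSCC ranged from -1.48 through a median of -0.05 to 1.18. The OSCC therefore split around the normal range, with 6 animals above every normal sample (9, 11, 13, 16, 25 and 26), 4 below every normal sample (4, 17, 22 and 24) and 1 within. The mean difference was 0.53 ± 0.27 (SE, n = 11 pairs; 1.44-fold, 95% interval 0.96-fold to 2.17-fold) and did not pass the test (limma adjusted p = 0.12). The SD over animals was 0.92 in OSCC and 0.20 in normal tongue, a ratio of 4.52, where the median ratio over all symbols was 1.67. The largest pair difference was 1.82 in animal 11 and the lowest -0.79 in animal 4, which was 1 of the 2 pairs scanned on the same day. With scan day as a term the mean difference turned to -0.12.

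Tgfb3, the third ligand gene, had levels from -0.91 to -0.32 in normal tongue with a median of -0.55, and from -0.78 to 0.30 in OSCC with a median of -0.32. It was higher in OSCC in 10 of 11 pairs, but by little, and 5 OSCC lay above every normal sample. On average it differed by 0.31 ± 0.14 (SE, n = 11 pairs; 1.24-fold, limma adjusted p = 0.089), which did not pass the test. The adjusted p of Tgfb3 was under 0.05 in 2 of 24 alternatives, with a range of 0.028 to 0.72. The largest pair difference of Tgfb3, 1.22, was in animal 24, where Inhba was lowest against its normal partner. The only negative one, -0.46, was in animal 26.

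Tgfb2, a ligand gene known among other roles for suppressing T cells, was near background throughout. Its brighter probe was well above background in 4 normal and 6 OSCC samples. Its level ran from -4.53 to -3.55 in normal tongue, with a median of -3.98, and from -4.93 to -3.58 in OSCC, with a median of -4.30. OSCC and normal tongue differed by -0.30 ± 0.16 (SE, n = 11 pairs; limma adjusted p = 0.14), which did not pass the test. The dimmer probe, well above background in 0 normal and 5 OSCC samples, gave 0.15 (adjusted p = 0.53). A probe that the array describes as Tgfb2 but names by an Ensembl transcript, looked up after the values were seen, gave -0.78 (adjusted p = 0.0094) and was well above background in 1 normal and 2 OSCC samples. The 3 probes thus did not settle a direction for Tgfb2.

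**Figure D1:**
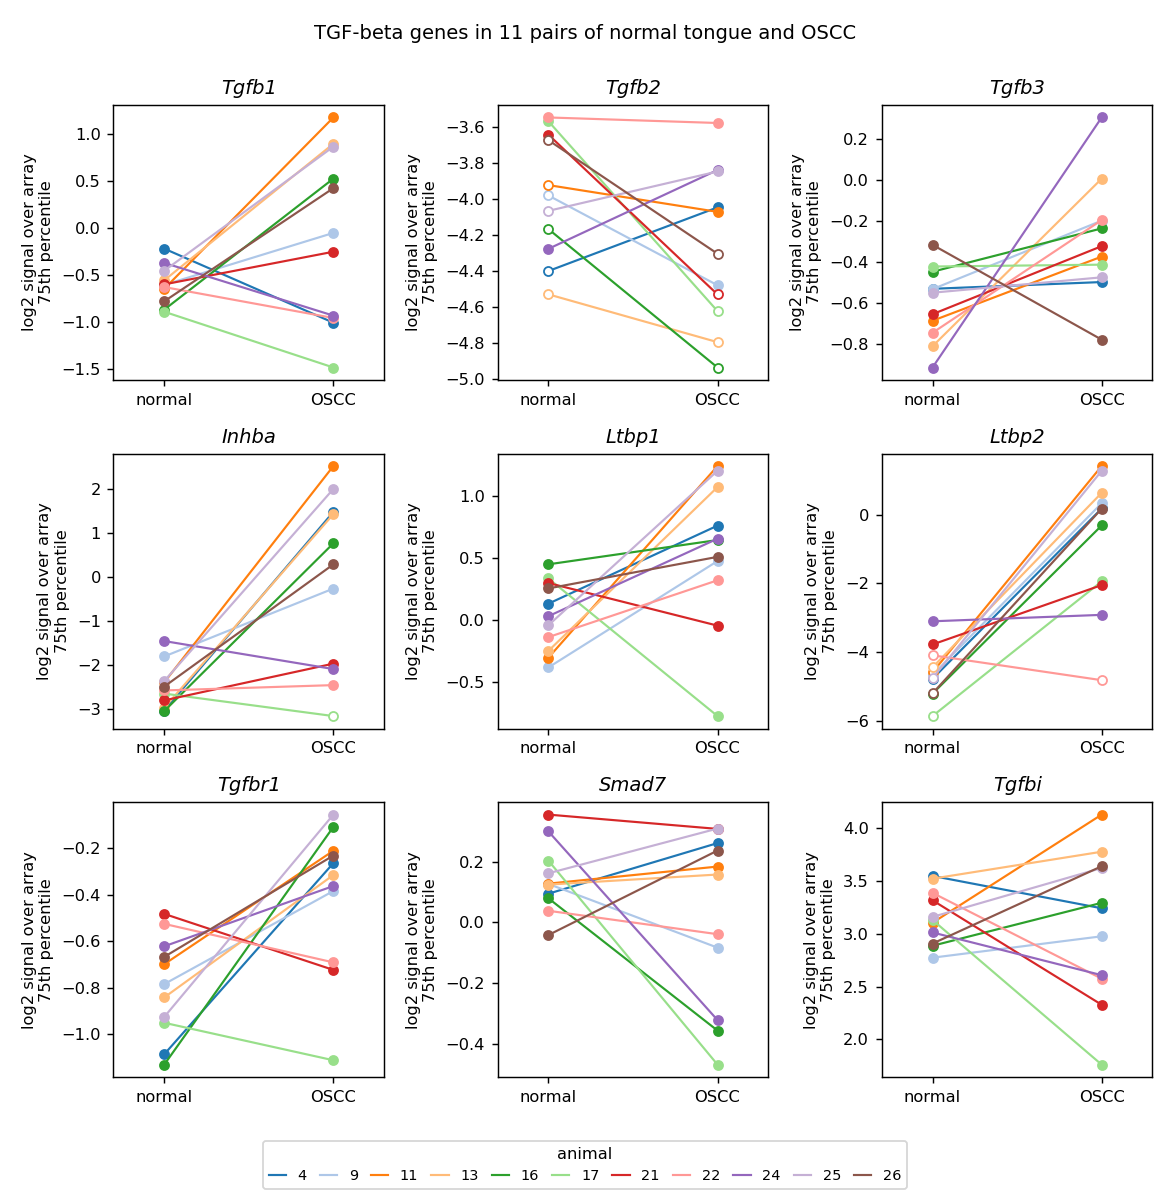
Level of the 9 measured TGF-beta genes in normal tongue and OSCC of the same animal, as log2 signal relative to the 75th percentile of the array (the vertical scales differ). Each line is 1 of 11 animals, filled points were well above background and open points were not. Ltbp2 was higher in OSCC in 10 of 11 animals and Inhba in 9, while Tgfb1 and Tgfbi fanned out to both sides of the normal range.

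Among the latency proteins, Ltbp2 showed the largest difference of the 9 genes. Its product binds fibrillin microfibrils and, unlike the other binding proteins of the family, is not known to hold latent TGF-beta. Its level was -5.86 at the lowest, -4.66 at the median and -3.10 at the highest in normal tongue, and -4.81, 0.18 and 1.42 in OSCC. OSCC lay above every normal sample in 10 animals, and the exception was animal 22. The mean difference was 3.86 ± 0.64 (SE, n = 11 pairs), a 14.5-fold rise with a 95% interval of 5.56-fold to 37.9-fold (limma adjusted p = 0.00096). The pair differences ran from -0.72 in animal 22 to 6.03 in animal 25, and 9 of 11 passed 2-fold. Only 2 normal samples were well above background, against 10 OSCC, so the size of the fold depends on how background was removed. With a convolution background correction the mean difference was 1.93 and was still called.

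The second Ltbp2 probe, the one printed above, was well above background in 0 normal and 8 OSCC samples. It was at least 3.99-fold higher in OSCC (limma adjusted p = 0.0007) and higher in 11 of 11 pairs. With scan day as a further term the brighter probe gave 4.98 and was no longer called (limma adjusted p = 0.085), against 4.5e-06 to 0.085 over 25 alternatives. In the pairs scanned on the same day it gave 4.96 in animal 4 and 4.998 in animal 9.

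Ltbp1, which binds latent TGF-beta covalently and anchors it to the matrix, was well above background on all arrays. Its level ran from -0.38 to 0.45 in normal tongue, with a median of 0.03, and from -0.78 to 1.25 in OSCC, with a median of 0.65. OSCC lay above every normal sample in 8 animals and below in 1, animal 17. Its mean difference was 0.52 ± 0.22 (SE, n = 11 pairs; 1.43-fold, 95% interval 1.03-fold to 1.999-fold) and did not pass the test (limma adjusted p = 0.072). Without animal 17, whose pair difference was -1.11, the mean difference was 0.68 (adjusted p = 0.014), and over 24 alternatives the adjusted p ran from 0.014 to 0.32.

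Tgfbr1, the type 1 receptor that phosphorylates the SMADs, had levels from -1.13 to -0.48 in normal tongue with a median of -0.78, and from -1.11 to -0.06 in OSCC with a median of -0.31. OSCC lay above every normal sample in 8 animals, and animals 17, 21 and 22 were the exceptions. The mean difference was 0.39 ± 0.14 (SE, n = 11 pairs), a 1.31-fold change with a 95% interval of 1.06-fold to 1.61-fold. It passed the adjusted p alone (limma adjusted p = 0.042) and stayed under the 2-fold threshold. That p was under 0.05 in 11 of 24 alternatives, with a range of 0.0078 to 0.49, and it was 0.30 with arrays scaled to their median.

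The inhibitor and the target gene did not pass the test. Smad7, which blocks the type 1 receptor and is itself induced by TGF-beta, ran from -0.04 to 0.35 in normal tongue with a median of 0.13, and from -0.47 to 0.31 in OSCC with a median of 0.16. Its mean difference was -0.13 ± 0.12 (SE, n = 11 pairs; adjusted p = 0.38), with a 95% interval of 0.77-fold to 1.09-fold. No OSCC lay above the normal range, and 4 lay below it (animals 9, 16, 17 and 24). Tgfbi, which encodes a TGF-beta-induced matrix protein, ran from 2.77 to 3.55 in normal tongue with a median of 3.13, and from 1.76 to 4.13 in OSCC with a median of 3.24. Of the 11 OSCC, 4 lay above every normal sample (animals 11, 13, 25 and 26) and 4 below (17, 21, 22 and 24). Its mean difference was -0.07 ± 0.22 (SE, n = 11 pairs; limma adjusted p = 0.80), with a 95% interval of 0.68-fold to 1.32-fold, and its sign changed with the scaling.

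Scaling moved the small differences of these genes but not the calls. The median of all probes lay at -0.24 with the main scaling, -0.03 after quantile normalisation and -0.44 with arrays scaled to their median. Relative to that median, the main differences were 4.10 for Ltbp2, 2.61 for Inhba, 0.77 for Tgfb1, 0.76 for Ltbp1, 0.63 for Tgfbr1 and 0.55 for Tgfb3. They were 0.17 for Tgfbi, 0.12 for Smad7 and -0.06 for Tgfb2. After quantile normalisation they were 3.93 for Ltbp2 and 2.35 for Inhba, and the value for Smad7 was -0.08. Without that subtraction, Tgfb2 passed the adjusted p alone after quantile normalisation (-0.46, limma adjusted p = 0.018) and with arrays scaled to their median (-0.50, limma adjusted p = 0.017). Smad7 did so with the latter (-0.33, limma adjusted p = 0.047). Tgfb3, higher in OSCC, did so with the 75th percentile taken over probes well above background on all arrays (0.40, limma adjusted p = 0.045). None of these genes reached the 2-fold threshold.

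**Figure D2:**
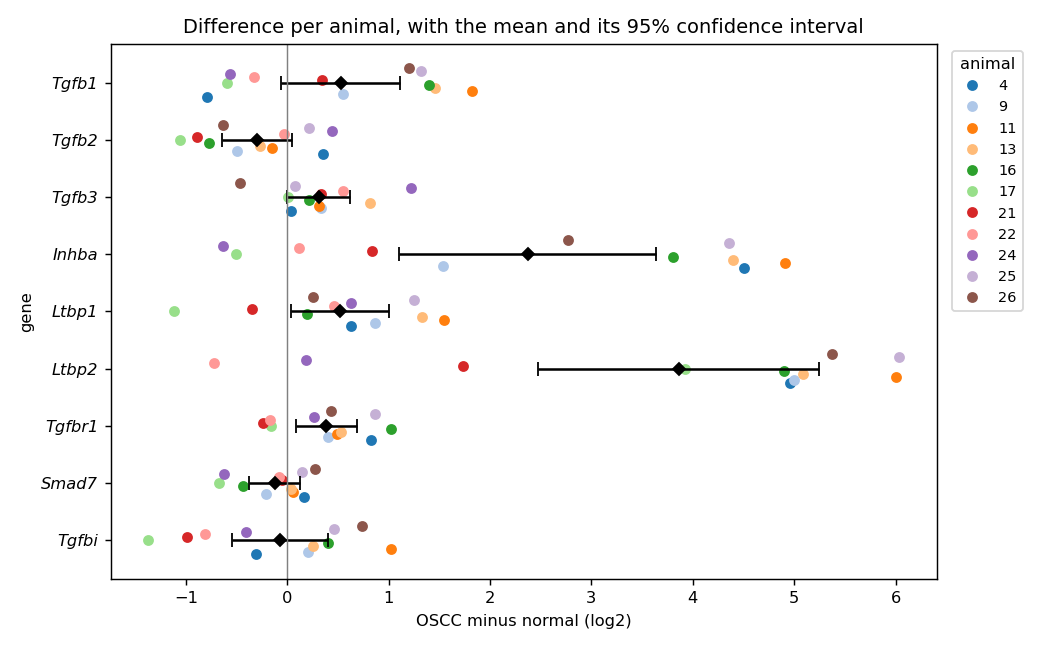
OSCC-minus-normal difference (log2) of the 9 genes. Coloured points are the 11 animals, black diamonds the mean and bars its 95% confidence interval. The intervals of Ltbp2 (2.48 to 5.24) and Inhba (1.10 to 3.64) lie far from 0, while those of Tgfb1, Tgfb2, Smad7 and Tgfbi include 0.

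The differences of the called genes varied widely between animals. In animals 17, 21, 22 and 24, Inhba differed by -0.51, 0.83, 0.12 and -0.64, and Ltbp2 by 3.92, 1.73, -0.72 and 0.19. In the other 7 pairs, Inhba differed by 1.54 to 4.90 and Ltbp2 by 4.90 to 6.03. Animals 21, 22 and 24 were also the only pairs in which the mean over the skeletal muscle markers was higher in OSCC than in normal tongue. Single markers did not all follow that mean. Myh2 was higher in OSCC in 9 of 11 pairs, Actn3 in 8 and Myh1 in 4. Acta1, Ckm, Tnnt3, Tnni2, Tnnc2, Mylpf and Casq1 were higher in 3 pairs each. Without these 3 pairs the mean difference was 3.22 for Inhba and 5.16 for Ltbp2, both called.

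Across the 11 pair differences, none of the 36 relations between these genes passed Benjamini-Hochberg adjustment of the permutation p. Tgfb1 and Tgfbi had one of the highest correlations (Pearson r = 0.82, permutation p = 0.0029, adjusted p = 0.066; Spearman rho = 0.78, permutation p = 0.0066, adjusted p = 0.22). It was 0.84 without the 2 pairs farthest from the median of Tgfb1. Ltbp2 and Tgfbr1 fell into separate clusters of pairs, so their relations were computed within the larger cluster. All differences of a pair share the same 2 arrays and their scaling.

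Among 11640 genes well above background on at least 11 arrays, Fst had the pair differences most like those of Inhba (Pearson r = 0.97, Spearman rho = 0.92, n = 11 pairs). Fst encodes follistatin, which binds and neutralises activin. Its own mean difference was 0.90 ± 0.32 (SE, n = 11 pairs; limma adjusted p = 0.038), under the 2-fold threshold. Ccdc23 and Lrrc8a followed, at an r of 0.97 each and a rho of 0.90 and 0.88, with mean differences of 0.12 and 0.20 that did not pass the test. For Ltbp2, ranked in the same way, they were Fgr, Mlkl and Uhrf1, with Pearson r of 0.99, 0.99 and 0.98 and Spearman rho of 0.89, 0.90 and 0.92 over 11 pairs. The Ltbp2 differences fell into separate clusters, and within the 8 pairs other than animals 21, 22 and 24 the r of these genes was 0.90, 0.86 and 0.80 and the rho 0.71, 0.74 and 0.79. Fgr, a kinase gene of myeloid cells, was itself called, with a mean difference of 2.64 ± 0.38 (SE, n = 11 pairs; limma adjusted p = 0.00048). As the highest of many correlations over 11 pairs, these are a description and carry no p.

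**Figure D3:**
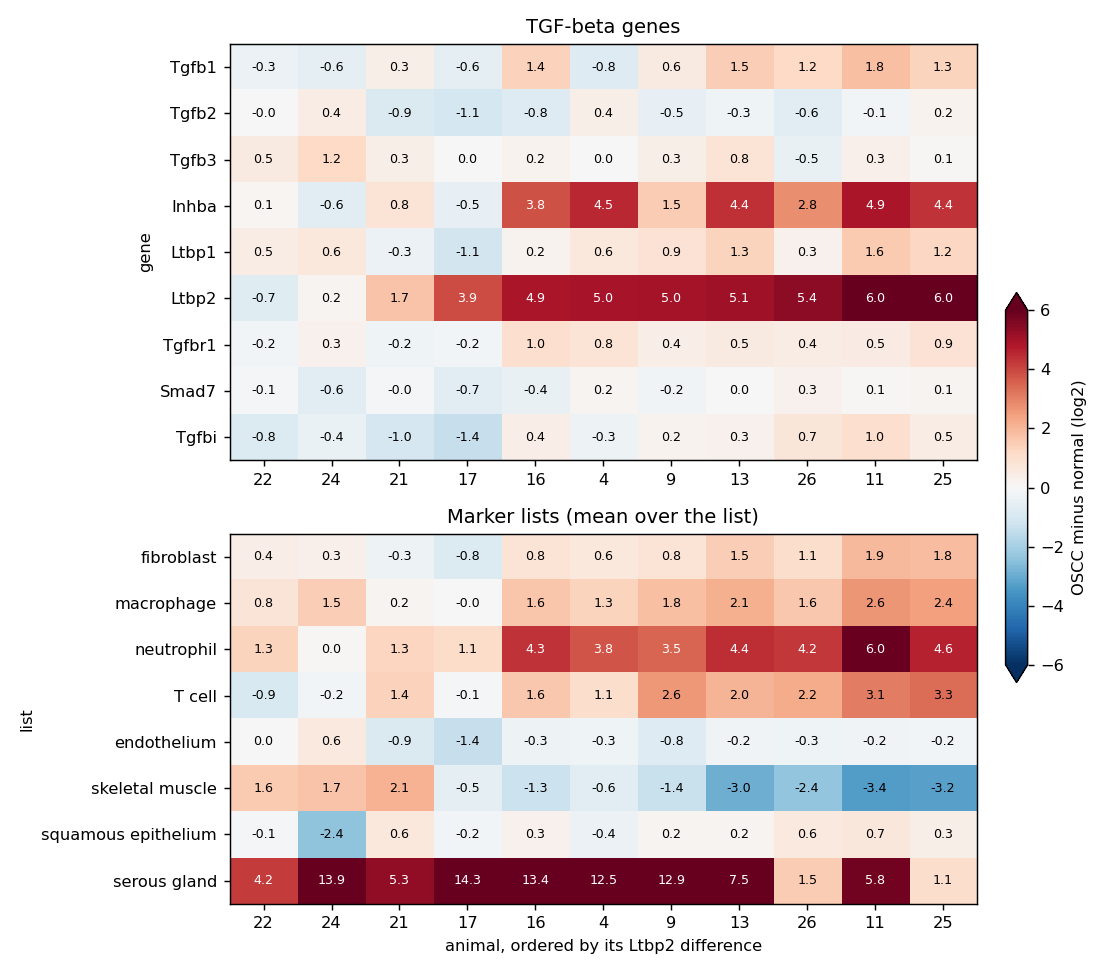
OSCC-minus-normal difference (log2) in each animal, for the 9 genes above and for the mean over each of 8 marker lists below, with animals ordered by their Ltbp2 difference and the value printed in each cell. The colours end at -6 and 6, so larger serous gland values share the darkest colour. Animals 22, 24 and 21, at the left, had the lowest Ltbp2 differences and a higher mean of the skeletal muscle markers in OSCC.

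Markers of other cell types moved with several of these genes. Between the tissues, 7 of 10 macrophage, 5 of 6 neutrophil and 7 of 8 T cell markers were called higher in OSCC. So were 7 of 7 serous gland, 2 of 9 fibroblast and 1 of 10 squamous epithelium markers. Of 8 endothelial markers, 0 were called by limma and 0 by the paired t-test under the same 2-fold and adjusted p rule. By limma, 5 had an unadjusted p under 0.05. The 4 that passed the adjusted p alone, Pecam1, Kdr, Vwf and Cldn5, were lower in OSCC, and the list's median was -0.40. Of 10 skeletal muscle markers, 6 were called lower and 1, Myh2, higher. The summed signal of the fibroblast list, relative to the 75th percentile, ran from 26.8 to 40.4 in normal tongue and from 23.9 to 128.3 in OSCC. For the macrophage list it was 15.4 to 37.0 and 25.1 to 78.5. For the T cell list it was 0.85 to 3.03 and 1.37 to 7.19. For the neutrophil list it was 0.68 to 4.56 and 1.67 to 395.6. For the muscle list it was 1132 to 2552 and 92.7 to 3002. For squamous epithelium it was 444.2 to 986.8 and 254.3 to 1096, so markers of muscle and of squamous epithelium, which make up the tongue, were present in both tissues. Each fibroblast, endothelial and squamous epithelium marker was well above background on all 11 normal arrays.

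Of 72 relations between a gene's pair differences and the mean difference of a marker list, 19 passed the adjusted permutation p of Pearson's r, and 2, those of the serous gland list with Ltbp2 and Tgfbr1, had only 4 pairs in the cluster and were not computed. The fibroblast list went with Tgfbi (Pearson r = 0.91, adjusted permutation p = 0.0023; Spearman rho = 0.95, adjusted permutation p = 0.0049) and with Ltbp1 (r = 0.91, adjusted permutation p = 0.0033; rho = 0.76, adjusted permutation p = 0.050). These were 0.82 and 0.80 without the 2 pairs farthest from the median of the list. The fibroblast list also went with both called genes, at 0.94 for Ltbp2 over 8 pairs (adjusted permutation p = 0.014; rho = 0.88, adjusted permutation p = 0.045) and 0.81 for Inhba (adjusted permutation p = 0.016; rho = 0.80, adjusted permutation p = 0.034). The macrophage list had an r of 0.92 with Ltbp2 over 8 pairs (adjusted permutation p = 0.016; rho = 0.79, adjusted permutation p = 0.0997) and of 0.75 with Inhba (adjusted permutation p = 0.036; rho = 0.68, adjusted permutation p = 0.099). For the T cell list these were 0.93 with Ltbp2 over 8 pairs (adjusted permutation p = 0.014; rho = 0.90, adjusted permutation p = 0.034) and 0.75 with Inhba (adjusted permutation p = 0.043; rho = 0.65, adjusted permutation p = 0.13). Without the 2 farthest pairs, these 6 values lay between 0.61 and 0.81. The macrophage list went with Tgfbi and Ltbp1 too, at 0.92 each (adjusted permutation p = 0.0023 for both; rho of 0.87 and 0.84, with adjusted permutation p of 0.029 and 0.033). The skeletal muscle list went inversely with Tgfb1 (r = -0.84, adjusted permutation p = 0.029; rho = -0.79, adjusted permutation p = 0.0997) and with Ltbp2 (r = -0.84, adjusted permutation p = 0.018; rho = -0.93, adjusted permutation p = 0.033) over 8 pairs. Without the pairs of animals 21, 22 and 24, 0 of 72 relations passed. The number was 2 without animal 11, 2 without animal 21, 4 without animal 17, 6 without animal 22, 9 without animal 25, 10 without animal 9 and 11 without animal 26, and 11 over the pairs scanned on different days. Over 19 alternatives, the r of the fibroblast list ran from 0.67 to 0.93 with Tgfbi, which passed in 17, and from 0.77 to 0.94 with Ltbp1, which passed in 16. It ran from 0.58 to 0.99 with Ltbp2, which passed in 12, and from 0.44 to 0.88 with Inhba, which passed in 11. The macrophage list passed with Tgfbi in 15, with Ltbp1 in 15, with Ltbp2 in 10 and with Inhba in 7. The T cell list passed with Ltbp2 in 9 (r from 0.38 to 0.98) and with Inhba in 5 (r from -0.04 to 0.77). The skeletal muscle list passed with Ltbp2 in 13 and with Tgfb1 in 7. The part of cell makeup in the differences of the genes was not tested.

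The other genes of the pathway were read from 8 lists by role, of which 112 genes were measured. The lists were written with earlier results of these data known. Their shares beside those of all symbols are therefore a description and cannot show an enrichment of the pathway. Of these, 38 were called higher in OSCC, 33.9% against 7.48% of all symbols, and 4 were called lower, 3.57% against 7.24%. The median difference over the lists was 0.31, against -0.21 over all symbols. With scan day as a term, limma called 0 of the 112, and 32 at an unadjusted p.

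In the list of latency and activation, 8 of 17 genes were called higher and 1 lower, with a median of 0.59. Mmp9, a protease that can cleave latent TGF-beta, had a median of -5.76 in normal tongue and -0.71 in OSCC. Its mean difference was 3.78 ± 0.95 (SE, n = 11 pairs; limma adjusted p = 0.0087), with 10 of 11 pairs higher and 1 normal sample well above background. Thbs1, the activator thrombospondin, was well above background in 0 normal and 9 OSCC samples, and was at least 2.22-fold higher (limma adjusted p = 0.00018). Fbn2, a microfibril gene to which the binding proteins attach, was at least 1.795-fold higher (limma adjusted p = 0.0041). The called gene that was lower was Itgb6, the epithelial integrin subunit that releases latent TGF-beta, at -1.70 ± 0.29 (SE, n = 11 pairs; limma adjusted p = 0.0010). It was lower in 11 of 11 pairs, with a median of 1.48 in normal tongue and -0.47 in OSCC, and 9 OSCC lay below every normal sample.

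In the list of other family ligands, 3 of 11 genes were called higher and 1 lower, with a median of -0.32. Inhbb, the subunit of activin B, had levels of -4.10 to -2.61 in normal tongue and -2.64 to 1.55 in OSCC. It was higher in 11 of 11 pairs, at 3.27 ± 0.44 (SE, n = 11 pairs; limma adjusted p = 0.00038), and 10 OSCC lay above every normal sample. The other activin subunit genes, Inhbc and Inhbe, named here after their values were seen, were at 0.03 and -0.54 and did not pass the test (limma adjusted p = 0.97 and 0.066). Mstn, the muscle growth inhibitor myostatin, was at 1.602 and Gdf15, a stress-induced ligand, at 1.12. Bmp2, a bone morphogenetic protein, was at -1.04, and all 11 OSCC lay below the lowest normal sample.

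In the list of extracellular antagonists, 5 of 10 genes were called higher and 0 lower, with a median of 1.03. Grem1, which blocks bone morphogenetic proteins, had a median of -2.48 in normal tongue and 2.17 in OSCC and differed by 3.78 ± 0.57 (SE, n = 11 pairs; limma adjusted p = 0.00063). Fmod, a small proteoglycan that binds TGF-beta, differed by 3.22 ± 0.36 (SE, n = 11 pairs; limma adjusted p = 0.00017), and each of the 11 OSCC lay above the highest normal sample. The other called genes were Fstl1, at 1.22, where another probe of the gene was not called in the same way, and the proteoglycan genes Dcn and Bgn, at 1.16 and 1.10, which complete the count.

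Among receptors and SMADs, 1 gene was called, while 4 of each list had an adjusted p under 0.05 at any fold, the called gene included. Of 11 receptor genes other than Tgfbr1, 0 were called higher and 1 lower, Acvr2b, an activin type 2 receptor, at -1.03 ± 0.25 (SE, n = 11 pairs; limma adjusted p = 0.0076). The list's median was -0.17, with 5 genes at an unadjusted p under 0.05 by limma. Of 7 SMAD genes, limma called 0, with 4 at an unadjusted p under 0.05 and 0 called by the paired t-test, and the median was -0.25. Smad6, the inhibitor paired with Smad7 and named here after its values were seen, was lower in 11 of 11 pairs at -0.88 (limma adjusted p = 0.0012), under the 2-fold threshold. Smad3, also named after its values were seen, was 1 of the 4 SMAD genes with an adjusted p under 0.05 (limma adjusted p = 0.027). It was well above background on 0 of 22 arrays.

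In the list of intracellular regulators, 2 of 13 genes were called higher and 1 lower, with a median of 0.19. The higher ones were Pmepa1, a feedback inhibitor that TGF-beta induces, at 1.65 ± 0.30 (SE, n = 11 pairs; limma adjusted p = 0.0016), and the SMAD corepressor gene Skil, at least 1.14-fold (limma adjusted p = 0.00044). Bambi, a decoy receptor, differed by -2.01 ± 0.26 (SE, n = 11 pairs; limma adjusted p = 0.00031). Its normal levels were 0.06 to 1.57 and its OSCC levels -2.37 to 0.01, so the groups did not overlap. Of the inhibitors within the pathway named here, Pmepa1 and Skil were called higher and Bambi was called lower. Smad6, which passed the adjusted p alone, and Smad7 were not called.

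In the list of matrix and contractile targets, 14 of 22 genes were called higher and 0 lower, with a median of 1.24. Postn, the matrix protein periostin, differed by 4.79 ± 0.71 (SE, n = 11 pairs; limma adjusted p = 0.00055), with a median of -1.91 in normal tongue and 4.19 in OSCC. Lox, which crosslinks collagen, was at 4.07 and Tnc, the matrix protein tenascin C, at 3.59. The contractile genes Acta2, Tagln and Cnn1, which mark smooth muscle and myofibroblasts and were named after their values were seen, were at 0.26, 0.21 and -0.39 and did not pass the test (adjusted p = 0.25, 0.32 and 0.49). Tgfbi, a matrix target outside this list, was also not called.

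In the list of growth and transcription targets, 6 of 21 genes were called higher and 0 lower, with a median of 0.26. Il11, a cytokine that TGF-beta induces in fibroblasts, was well above background in 0 normal and 6 OSCC samples and was at least 2.98-fold higher (limma adjusted p = 0.032). The fit used 10 pairs for it because its spot on 1 array had been removed. Runx1, a transcription factor gene, was at 1.56, with each of the 11 OSCC above the highest normal sample. Snai1, a repressor of epithelial genes, was at 1.32.

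**Figure D4:**
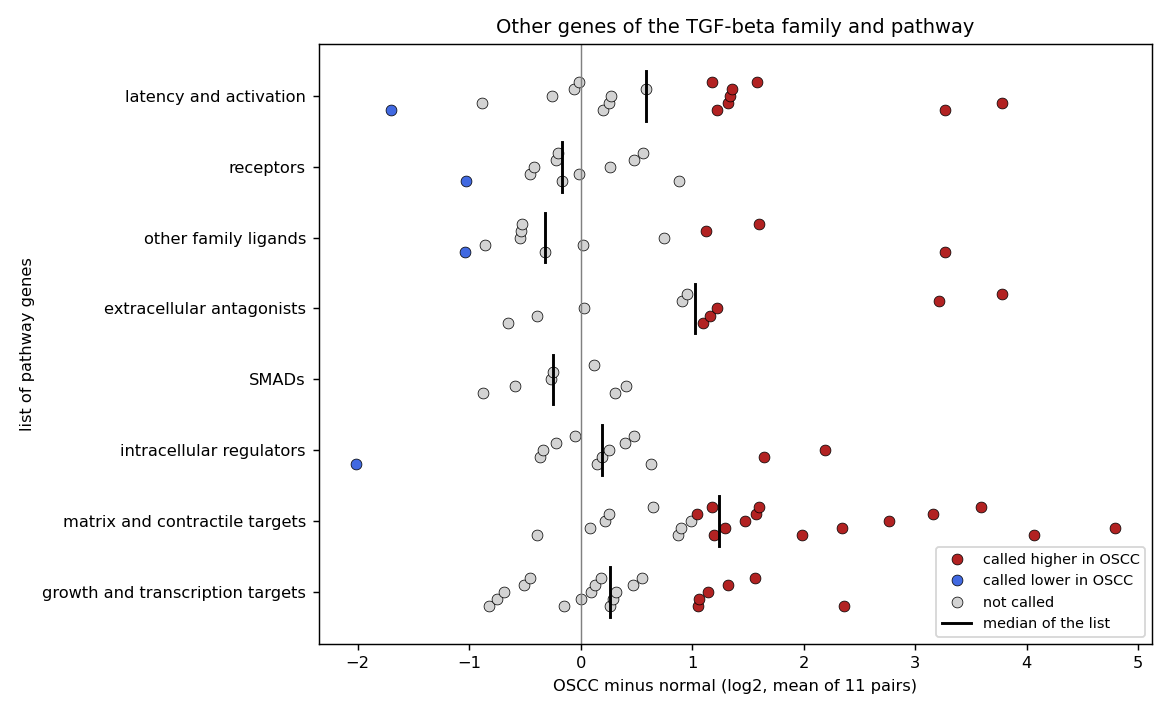
OSCC-minus-normal difference (log2, mean of 11 pairs) of 112 genes in 8 lists of the TGF-beta family and pathway. Each point is a gene, red if called higher in OSCC, blue if called lower and grey if not called, and the black bar is the median of the list. The matrix and contractile targets have the highest median, 1.24, and receptors and SMADs have no red point.

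The promoters of the 10 genes were searched for CAGACA, the core of the CAGA box that SMAD3 and SMAD4 bind, on both strands. RefSeq promoters on the GRCr8 build, 300 bases each, were matched by symbol for all 10 genes. The motif lay in 1 of the 10, against 21.1% of 33469 promoters, and the 1 was Inhba. Its match, in capitals, spans the annotated start of transcription in this stretch of 110 bases, chr17:53804499-53804608 on the minus strand.
Inhba promoter: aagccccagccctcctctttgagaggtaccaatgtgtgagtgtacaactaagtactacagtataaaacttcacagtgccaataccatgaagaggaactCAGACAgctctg
No match in the other 9 says only that these letters are not in these windows.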

How the data were processed

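Total RNA of 11 OSCC and 11 normal tongue pieces, 1 of each from every rat, was hybridised to one-colour Agilent rat arrays. The deposited scanner files, made by the authors with Agilent Feature Extraction, hold a processed intensity per spot, from which a fitted spatial background surface had been subtracted, and flags for spots well above background. The deposited series table holds the authors' scaled ratio of each spot to its array, used as an alternative. Columns not used numbered 0.

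Control spots and 9196 outlier spots (0.975%) were left out, spots of a probe were averaged as log2 intensity, and the 75th percentile of the array was subtracted. limma 3.58.1 (R 4.3.3) was fitted to 30367 probes with the rat as a block, since both tissues came from the same rat. The deviations of same-numbered samples from their tissue means correlated at -0.21 to 0.24, so the 2 pieces of a rat did not clearly deviate together. Gene names are those of the array design. The number of arrays limits the precision, and the p-values cover the spread over 11 animals. Where no sample of a tissue was well above background, the fold is a bound, computed from the lowest signal well above background on each array. On simulated data of 30299 probes with 11 pairs, the same test recovered 76 of 100 changes of 1.5 log2 and 96 of 100 changes of 3 log2. It called 6 unchanged probes. The simulated noise was independent, equal in both tissues and free of effects of rat, slide and scan day. In the data, the SD was larger in OSCC for 84.4% of symbols. These counts therefore do not give the error rates of the test on the real arrays. Relations between pair differences used 100000 permutations, two-sided, over the 11 pairs or the larger cluster where a gap exceeded 30% of the range. The named genes were all members, the called genes with the 3 largest rises and 3 largest falls in each list, and the 3 genes most like each called member by Pearson r over 11 pairs. A few genes outside this rule were named to complete a count of 5 or fewer, or after their values were seen, as said beside them. The members and lists were chosen with earlier results of these data known. Alternatives covered the block, scaling, background, scan day, slide, dim probes, outlier spots, threshold, test, probe and left-out pairs. Protein sequences were not used here.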

Additional observations from a re-analysis of the deposited data

How the results depend on the processing

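Ltbp2 and Inhba, 2 called genes, were called under every alternative run for the count of calls except scan day as a further term, which left 0 called (Inhba 3.02, adjusted p = 0.15; Ltbp2 4.98, adjusted p = 0.085) and, at an unadjusted p added after seeing the data, 1, Ltbp2. Only the pairs of animals 4 and 9 inform that fit. Without the replicate block for the pairing by rat, 2 members and 42 pathway genes were called, as with it. Of the pathway genes, 38 higher and 4 lower, scan day as a term left 0 of either direction, while its unadjusted p gave 25 in the higher and 7 in the lower direction. The number lower was 8 after scaling to the array median, 2 with a percentile over detected probes, 2 after normexp background correction and 15 by adjusted p alone. The number higher was 28 after scaling to the array median, 40 with the percentile over detected probes, 26 after normexp and 48 by adjusted p alone. Leaving out each pair in turn gave 35 to 46 pathway genes (32 to 41 higher, 3 to 5 lower) and 2 members each time. Differences that turned sign were those of Tgfb1 with scan day as a term (-0.12), of Tgfb2 with its dimmer probe (0.15), and of Tgfbi after quantile normalisation (0.081), with the percentile of detected probes (0.015), without animals 21, 22 and 24 (0.18) and without 1 of the animals 17, 21 and 22, in a range of -0.18 to 0.057 over all left-out pairs. Single pairs scanned on 1 day also had the opposite sign, for Tgfb1 (-0.79), Tgfb2 (0.35) and Smad7 (0.17) in animal 4 and for Tgfbi (0.20) in animal 9. The cause was not tested. Relations were recomputed under alternatives chosen after seeing the data. Between members, 0 passed, with 2 after normexp and 0 to 3 when 1 pair was left out. With marker lists, 19 passed, with 6 after normexp, 11 over pairs scanned on different days, 0 without animals 21, 22 and 24, and 2 to 18 when 1 pair was left out. Single pairs scanned on 1 day give values but no count of calls. Signal close to background limits Tgfb2 and the fold of Ltbp2, and normexp lowered Ltbp2 to 1.93 and Inhba to 1.65.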
